A study of Caenorhabditis elegans with 6 samples.

Results

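The expressed late-numbered microRNAs (miRNAs) of *Caenorhabditis elegans* were chosen by name and level, as the mature miRNAs whose name carries a number of 1000 or above and whose mean read count over the 6 libraries was 10 or more. Of 437 listed miRNAs, 201 carried such a number and 43 of these met the count minimum. The minimum uses the level over all 6 libraries and not the contrast between groups. For 32 of the 43 the mean was 10 or more in each group taken alone, 6 were under it in control and 5 were under it in cadmium libraries. Whole worms of the wild-type N2 strain, grown on nematode growth medium, gave 3 control libraries, labelled untreated, and 3 cadmium libraries. The cadmium libraries came from worms exposed as L4 larvae to cadmium chloride at 60 µmol/L with OP50 bacteria as food. The temperature was 20 °C for all 6 libraries. Neither the length of the exposure nor whether replicates were separate cultures is stated, so p-values measure the spread between these libraries, which may be technical. In whole-worm RNA, fewer cells of a type and less RNA per cell cannot be told apart.

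miRNAs are small RNAs cut from hairpin precursors. The microprocessor (Drosha with its partner protein) frees the hairpin from a longer transcript, Dicer removes the loop, and an Argonaute protein keeps one strand, from the 5p or the 3p side of the hairpin, which pairs with messenger RNAs through the bases of its seed. Names are numbered in order of discovery, so high numbers mark miRNAs found late, mostly by deep sequencing after the abundant ones had been cloned. Some of them are mirtrons, whose hairpin is a whole spliced-out intron and which skip the Drosha step. Functions are known for few of them, and none is stated below where it is not established.

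Library totals ran from 1640693 counts in control replicate 1 to 3917414 in control replicate 3, and none of the 15 pairs of libraries held identical counts. A floor of 3 counts stands for 0.761 to 1.60 CPM (counts scaled to a common library size) after trimmed-mean (TMM) scaling, the scale of all levels below. Of 15 marker miRNAs for embryo and germline, muscle, neurons, intestine and developmental timing, 8 were lower under cadmium, 0 were higher and 7 did not pass the test. The 8 are the miR-35 family of embryo and germline, which held 7.25% to 11.7% of all counts in control and 1.80% to 2.63% in cadmium libraries. The summed share was 17.8% to 23.1% in control and 18.6% to 24.2% in cadmium libraries for muscle miR-1-3p, and 0.0103% to 0.0150% and 0.00965% to 0.0132% for the 3 neuronal markers. For intestinal miR-60-3p it was 0.173% to 0.236% and 0.129% to 0.170%, and for the timing pair let-7-5p and lin-4-5p 0.666% to 1.07% and 0.837% to 1.19%. No marker was at 0 in any library. The part of the lower miR-35 family in the results below was not tested. A fit without the family changes scaling and adjustment only, so it cannot tell whether embryo or germline content differed.

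The late-numbered miRNAs were a small share of the miRNA pool. Together the 43 held 0.187%, 0.194% and 0.208% of the counts of the control libraries, by replicate, and 0.218%, 0.160% and 0.149% of those of the cadmium libraries. The groups overlapped, and the means were 0.196 ± 0.0106% (SD, n = 3) and 0.176 ± 0.0369%. Of the 201 late-numbered names 145 had at least 1 count in some library, and all 201 together held 0.204 ± 0.0111% in control libraries, so nearly all late-numbered reads belonged to the 43. Within the 43 the reads were concentrated again. miR-1820-5p and miR-1022-5p alone made up between 49.6% and 65.3% of the reads of the 43 in each library, and no other member reached a mean of 1000 counts. At the other end 34 of the 43 had a mean under 100 counts. By mean level the 43 ranked between 62 and 210 of all 437 names.

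**Figure D1:**
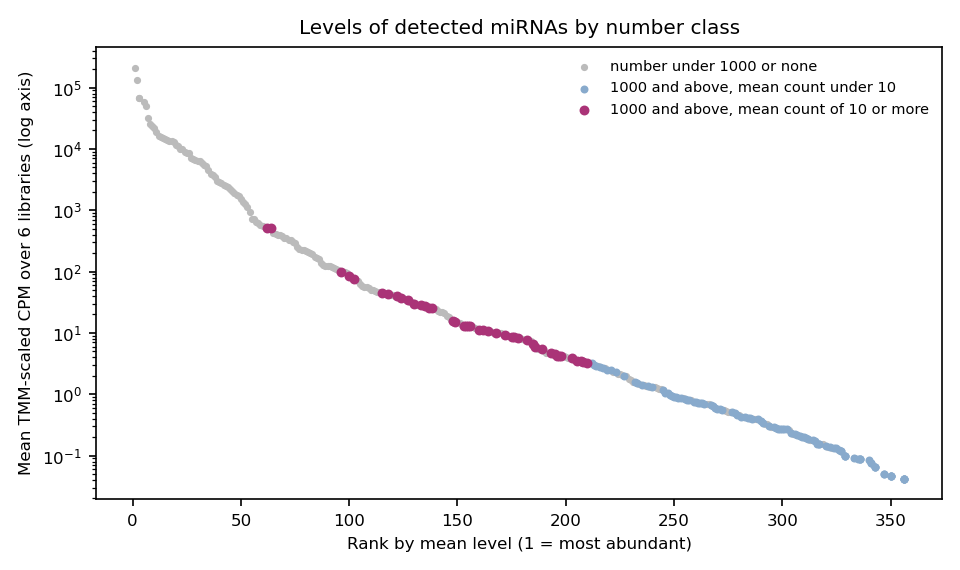
Mean TMM-scaled CPM over 6 libraries (log axis) against rank for every detected miRNA, with late-numbered miRNAs of mean count 10 or more in purple, the other late-numbered ones in blue and all others in grey. The purple points start at rank 62 and end at rank 210, and the 2 at the top are miR-1820-5p and miR-1022-5p.

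At the count minimum itself stood 3 miRNAs with a mean of exactly 10, miR-1822-5p, miR-2220-3p and miR-2208b-3p. Just outside were miR-4814-3p with a mean of 9.67 and miR-4805-3p with a mean of 9 counts. All but one of the 43 had at least 1 count in every library, miR-8187-3p being at 0 in control replicate 1, and 38 had more than 3 counts in every library.

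The comparison asked which of them stood at another level in exposed than in control worms. Counts were tested with edgeR (quasi-likelihood, two-sided) on all 208 miRNAs that passed a filter on low counts, with Benjamini-Hochberg adjustment over the 208 and a threshold of 0.05. Of the 43, 41 were tested, and miR-8187-3p and miR-2208b-3p did not pass the filter. Past the threshold were 10 of the 41, or 24.4%, beside 21.6% of all tested miRNAs. Higher under cadmium were 3 (7.32%, beside 9.62% of all tested), namely miR-2221, miR-8188-5p and miR-4937. Lower were 7 (17.1%, beside 12% of all tested), namely miR-1832a-5p, miR-8200-3p, miR-2209a-3p, miR-4813-3p, miR-4807, miR-2208b-5p and miR-1819-3p. These shares lie near those of all tested miRNAs. An unadjusted p under 0.05 was found for 19 of the 41, beside 35.1% of all tested. The fold change was below 0 for 26 of the 41, or 63.4%, beside 49.5% of all tested miRNAs, and the median log2 fold change was −0.36 beside 0.0039 over all 208 and 0.051 over the 166 numbered under 1000 or unnumbered. Every tested member under the count minimum in cadmium only was below 0, among them miR-1832a-5p. Every tested member under it in control only was above 0, among them miR-2221. Tallies and medians here and by block below are therefore partly set by the minimum. No tally was made over the 32 members that met it in each group. The 3 control and the 3 cadmium libraries did not overlap for 22 of the 41, or 53.7%, beside 38.5% of all tested. Of the 22, 10 were higher and 12 lower under cadmium. Over all 208 tested miRNAs, 17.8% were apart and higher and 20.7% apart and lower.

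Replicate spread was a little wider than elsewhere, at lower levels. The median coefficient of variation of the 41 was 23.9% in control and 22.1% in cadmium libraries, beside 20% and 18.5% for tested miRNAs under 1000. Their median level was 11.2 CPM, beside 165 CPM. The number past the threshold ran from 4 to 13 when single libraries were left out. It was 6 without control replicate 1, 4 without control replicate 3, 5 without cadmium replicate 2 and 6 without cadmium replicate 3. Over all tested miRNAs the number fell too, from 45 to 29, 22, 27 and 29 in that order.

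Members were split by number in blocks of 1000. The block from 1000 to 1999 held 17 members out of 36 listed names, the highest yield. It was 8 of 40 from 2000 to 2999, 9 of 42 from 4000 to 4999, 4 of 26 from 5000 to 5999 and 5 of 56 from 8000 to 8999. The single name above that, miR-12134, was not a member. Past the threshold were 2 of 17 tested members in the first block, both lower, and 3 of 7 in the second, 1 higher and 2 lower. It was 3 of 9 from 4000 to 4999, again 1 higher and 2 lower, 0 of 4 from 5000 to 5999, where 1 had an unadjusted p under 0.05, and 2 of 4 from 8000 to 8999, 1 in each direction. The share over all tested miRNAs was 21.6%, and with 4 to 17 members a block no block was shown to differ from it. Median log2 fold changes were −0.098, −0.71, −0.52, 0.023 and −0.69 in that order. With total-count scaling, which moved the median of all 208 to −0.16, the first was −0.27 and the last −0.87. Leaving out control replicate 3 put the median of the first block at 0.055, and leaving out cadmium replicate 3 put it at 0.033, so its sign rested on single libraries. No difference between blocks was tested.

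**Figure D2:**
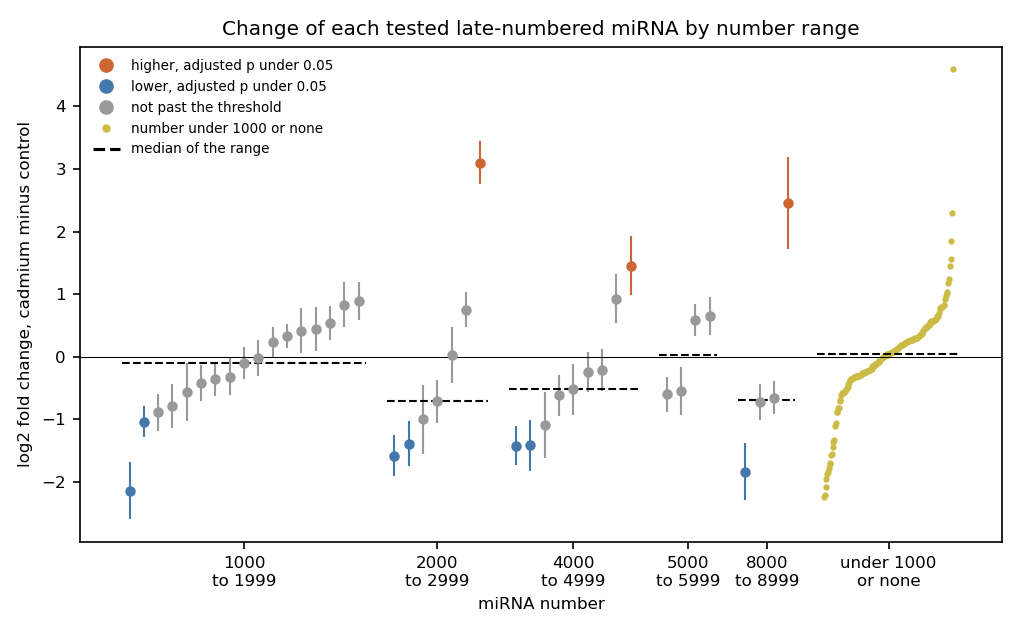
Log2 fold change (cadmium minus control) with its standard error for each of the 41 tested late-numbered miRNAs, ordered within each block of numbers, beside the 166 tested miRNAs numbered under 1000 or unnumbered (yellow). Orange and blue points passed an adjusted p of 0.05, 3 above and 7 below 0, and dashed lines give the median of each block.

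Among the 3 tested members that rose past the threshold, miR-2221 had the largest fold change. Reads numbered 6, 6 and 16 in the controls, by replicate, and 77, 109 and 70 in the exposed worms. Every cadmium library was well above every control library. The level was 3.19 ± 0.871 CPM in control and 28.4 ± 5.73 CPM under cadmium, a log2 fold change of 3.10 (standard error 0.34, adjusted p 0.000126). It passed the threshold with any single library left out, where the log2 fold change ran from 2.91 to 3.36. Its hairpin lies between protein-coding genes on the X chromosome (WBcel235, 1390847 to 1390964, plus strand), has no annotated hairpin neighbour within 10 kb, and is listed under a single mature name with no arm. Its control mean of 9.33 counts was under the count minimum, so it was a member through its cadmium libraries.

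miR-4937 (chromosome IV, 1381705 to 1381814, minus strand, between protein-coding genes) was counted 4, 16 and 21 times in the control and 32, 73 and 18 times in the cadmium libraries. In CPM these were 2.14, 6.18 and 5.33 against 9.08, 21.6 and 8.04, so the groups did not overlap, although cadmium replicate 2 alone was over 20 CPM. The log2 fold change was 1.45 (standard error 0.47, adjusted p 0.0475). Settings that lost the call included total-count scaling (adjusted p 0.0717), a fit without the miR-35 family (0.0521), and fits without control replicate 1 (0.167), control replicate 2 (0.0673), control replicate 3 (0.15), cadmium replicate 2 (0.206) or cadmium replicate 3 (0.054). Without cadmium replicate 2 the log2 fold change was 0.85.

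miR-8188-5p and miR-8187-3p shared a pattern that split the cadmium group. miR-8188-5p was counted 9, 18 and 10 times in the control and 12, 125 and 82 times in the cadmium libraries, and miR-8187-3p had 0, 8 and 3 in control and 3, 125 and 82 in cadmium libraries. Both were high in cadmium replicates 2 and 3, and in cadmium replicate 1 both were within the control range. Their counts were the same in cadmium replicates 2 and 3 and differed by 7 to 10 counts in each of the other 4 libraries. The names therefore cannot be read as separate measurements in those 2 libraries, and how reads that match several miRNAs were counted is not given in the sources used here. The hairpins lie on different chromosomes, mir-8188 on II between protein-coding genes (11840444 to 11840500, minus strand) and mir-8187 on I in an intron of ech-7 on the same strand. For miR-8188-5p the log2 fold change was 2.45 (standard error 0.73, adjusted p 0.0362), with overlapping groups. The call was lost without control replicate 1 (0.131), control replicate 2 (0.0548), control replicate 3 (0.154), cadmium replicate 2 (0.122) or cadmium replicate 3 (0.125), and without cadmium replicate 1 the adjusted p was 0.000243. miR-8187-3p did not pass the filter and was not tested. Its control mean of 3.67 counts was under the count minimum, so it was a member through its cadmium libraries alone. The neighbour of mir-8188 on its strand, mir-355, gave a log2 fold change of −0.26 for miR-355-5p, which did not pass the test.

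Among the falls, miR-1832a-5p (chromosome III, 11829248 to 11829311, plus strand) changed most. The miRNA was counted 11, 23 and 24 times in the control and 7, 2 and 5 times in the cadmium libraries. The groups did not overlap in CPM, at 6.95 ± 1.68 against 1.60 ± 0.885, but cadmium replicate 2 was under the floor of 3 counts. The log2 fold change was −2.14 (standard error 0.46, adjusted p 0.00704) and the call held with any single library left out (adjusted p up to 0.0366). Its hairpin is in an intron of rsp-8, a gene of the SR family of splicing factors, on the same strand. Its cadmium mean was under the count minimum, so it was a member through its control libraries.

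miR-8200-3p (chromosome V, 3057062 to 3057117, plus strand, between protein-coding genes) was counted 44, 20 and 117 times in the control and 23, 15 and 14 times in the cadmium libraries. Scaled to CPM, control replicates 1 to 3 were at 23.5, 7.73 and 29.7 and cadmium replicates at 6.52, 4.43 and 6.25. Control replicate 2 lay close to the cadmium group, just above its highest library. The log2 fold change was −1.83 (standard error 0.46, adjusted p 0.0178), and it missed the threshold without control replicate 1 (0.074), control replicate 3 (0.125) or cadmium replicate 2 (0.0725).

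miR-4813-3p was counted 69, 203 and 194 times in the control and 71, 61 and 53 times in the cadmium libraries. Its level was 54.8 ± 21.3 against 20.6 ± 2.85 CPM, a log2 fold change of −1.42 (standard error 0.32, adjusted p 0.00939). The control libraries were widely spread and the cadmium libraries close together, and the groups did not overlap. The call held with any single library left out (adjusted p up to 0.0494). Its hairpin (chromosome III, 4571640 to 4571716, plus strand) overlaps an exon of idhg-1 on the same strand, a gene for a subunit of isocitrate dehydrogenase.

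miR-1819-3p showed the tightest replicates among the members past the threshold. The miRNA was counted 74, 109 and 153 times in the control and 65, 71 and 43 times in the cadmium libraries. Scaled to depth these were 39.5, 42.1 and 38.8 CPM against 18.4, 21.0 and 19.2 CPM. The coefficient of variation was 4.31% in control and 6.68% in cadmium libraries, and the level under cadmium was lower in every library. The log2 fold change was −1.04 (standard error 0.24, adjusted p 0.0124), and the adjusted p was 0.0535 without control replicate 3.

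**Figure D3:**
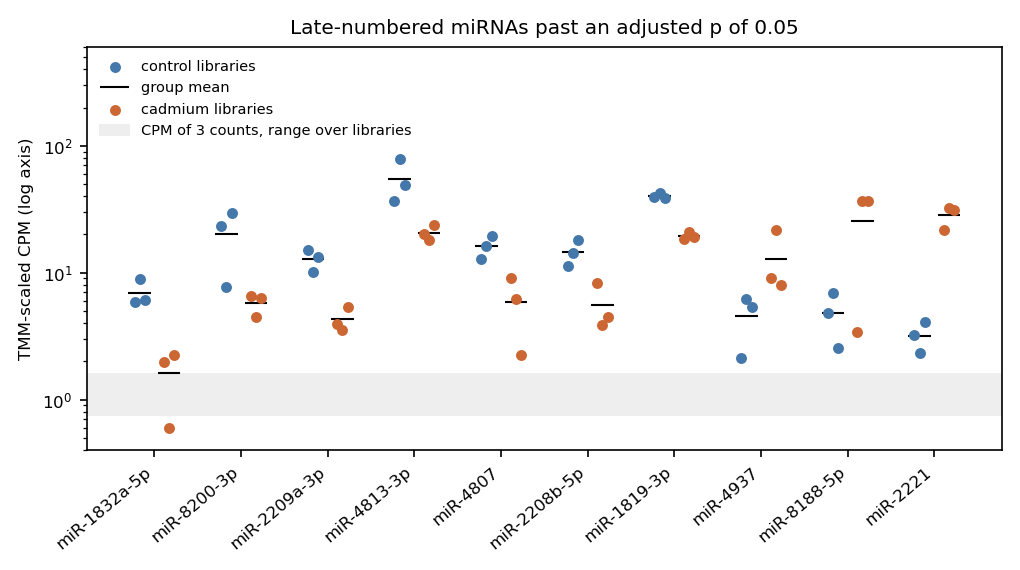
TMM-scaled CPM (log axis) in each control (blue) and cadmium (orange) library for the 10 late-numbered miRNAs past an adjusted p of 0.05, with group means as bars and the range of the 3-count floor in grey. The groups overlap only for miR-8188-5p, where cadmium replicate 1 lies among the control libraries and the other cadmium libraries are at 36.9 and 36.6 CPM.

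Position in the genome was described from the Ensembl release 115 annotation of WBcel235, the build named in the submitters' processing notes. The 43 members come from 36 hairpins, of which 15 lie on the X chromosome (41.7%, beside 28.7% of all 247 named hairpins). The hairpins were short, with a median annotated length of 65 bases beside 97 for hairpins numbered under 1000. Annotated ends depend on how much flank was entered with each hairpin. The annotated mature RNAs were 19 to 26 bases long, with a median of 23 beside 22. Between protein-coding genes lay 15 hairpins that span no intron of a non-coding gene, and of their 15 tested members 3 were higher and 4 lower past the threshold. Among the 3 is miR-8188-5p, whose counts in cadmium replicates 2 and 3 equal those of miR-8187-3p from an intron of ech-7. Its place in this group is therefore not secure. In an intron on the same strand lay 10 hairpins that do not span it, and 1 of their 12 tested members passed, miR-1832a-5p. The 3 hairpins in an intron on the opposite strand gave 4 tested members, of which 0 passed and 2 had an unadjusted p under 0.05, miR-8196b-3p and miR-1824-5p. One of the 3 is mir-5592, whose strand is not settled because a hairpin is annotated on both strands there. An exon of a protein-coding gene on the same strand was overlapped by 2 hairpins, mir-4813 and mir-2210. Among tested miRNAs numbered under 1000, 19 of 107 between protein-coding genes passed the threshold, 5 of 31 in an intron on the same strand and 10 of 22 in an intron on the opposite strand. These 10 were all lower, and they include miR-35-3p to miR-41-3p of the miR-35 family, whose hairpins lie together opposite Y62F5A.9. Over all 208 tested miRNAs 21.6% passed, 9.62% higher and 12% lower, and 35.1% had an unadjusted p under 0.05 in edgeR. No difference between positions was tested.

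A set of hairpins spanned whole introns, the arrangement that defines mirtrons, with both ends within 10 bases of the ends of 1 annotated intron. This held for 6 of the 36 hairpins. mir-1020 spans an intron of T16G12.1 and mir-4816 an intron of T09B4.2, both protein-coding genes. The other 4, mir-4807, mir-4808, mir-2220 and mir-1018, span different introns of 1 non-coding gene, Y59E1B.1, on the X chromosome. Of the 7 tested members of these 6 hairpins, 1 passed the threshold, miR-4807, and 6 had a fold change below 0, with a median log2 fold change of −0.62 and a range from −1.42 to 0.032. The 7 are not independent, since 4 of the hairpins share 1 host gene and both arms of mir-4816 are included. miR-4808-3p was a member through its control libraries (mean count 14 against 7) and miR-2220-3p through its cadmium libraries (9.67 against 10.3). The signs of these members are therefore tied to the count minimum. Beside them, 26 of all 41 tested members and 49.5% of all 208 tested miRNAs were below 0. Of all 208, 21.6% passed the threshold. Among tested miRNAs numbered under 1000 there was 1 of this kind, at −0.30.

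The annotation places 11 hairpins on introns of Y59E1B.1, between 1872466 and 1880038 on the plus strand of the X chromosome. They account for 15 mature names, of which 11 were detected and 4 were members. miR-4807 was counted 24, 42 and 76 times in the control and 32, 21 and 5 times in the cadmium libraries, or 12.8, 16.2 and 19.3 against 9.08, 6.21 and 2.23 CPM. The groups did not overlap, and the log2 fold change was −1.42 (standard error 0.41, adjusted p 0.0323). The call was lost without control replicate 1 (0.0734), control replicate 2 (0.0595), control replicate 3 (0.15), cadmium replicate 2 (0.0771) or cadmium replicate 3 (0.093).

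The other members on these introns did not pass. miR-4808-3p had 4, 17 and 21 counts against 14, 4 and 3, with a log2 fold change of −1.09 (standard error 0.53, adjusted p 0.173). Its groups overlapped because control replicate 1 was low and cadmium replicate 1 was not, and without cadmium replicate 1 the adjusted p was 0.0376. miR-1018 had 18, 20 and 47 counts against 28, 15 and 10, with a log2 fold change of −0.79 (standard error 0.35, adjusted p 0.133). miR-2220-3p had 6, 7 and 16 counts against 13, 6 and 12, with a log2 fold change of 0.032 (95% interval −0.96 to 1.02). In all 3 the groups overlapped. The remaining names on these introns had at most 10 counts over the 6 libraries together.

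miR-1020-3p, the most abundant intron-spanning member, was counted 86, 135 and 228 times in the control and 181, 133 and 58 times in the cadmium libraries, at 52.0 ± 5.96 against 38.8 ± 12.7 CPM. The groups overlapped, with a log2 fold change of −0.42 (standard error 0.29, adjusted p 0.347). Both arms of mir-4816 were members. miR-4816-5p was at 12.3, 13.1 and 13.4 CPM in control and 11.3, 8.57 and 4.91 CPM in cadmium libraries. Its groups did not overlap and its log2 fold change of −0.62 (standard error 0.33, adjusted p 0.209) missed the threshold. miR-4816-3p gave −0.24 (standard error 0.32, adjusted p 0.616).

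Outside Y59E1B.1, late-numbered hairpins within 10 kb of each other on the same strand were read side by side where the group held a member. On chromosome IV, 4 hairpins lie between 1021772 and 1027281 on the plus strand, mir-2208a, mir-2208b, mir-2209a and mir-2209c. miR-2209a-3p was counted 28, 26 and 52 times in the control and 14, 12 and 12 times in the cadmium libraries. Its level was 12.7 ± 2.49 CPM in control and 4.29 ± 0.948 CPM under cadmium, a log2 fold change of −1.58 (standard error 0.33, adjusted p 0.00601), and the call held with any single library left out. miR-2208b-5p was counted 21, 37 and 71 times in the control and 29, 13 and 10 times in the cadmium libraries, with a log2 fold change of −1.39 (standard error 0.36, adjusted p 0.0206). For both the groups did not overlap. The call of miR-2208b-5p was lost without control replicate 3 (0.125), cadmium replicate 2 (0.0771) or cadmium replicate 3 (0.0915).

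From the same hairpin miR-2208b-3p, which was not tested, was at 2.67, 3.86 and 6.09 CPM in control and 1.99, 2.36 and 2.68 CPM in cadmium libraries. Its highest cadmium library exceeded the lowest control library by a small margin. miR-2208a-5p, under the count minimum, was counted 4, 3 and 16 times in the control and 15, 11 and 4 times in the cadmium libraries, and its groups overlapped. miR-2208a and miR-2208b, and miR-2209a and miR-2209c, carry lettered names, given to closely related mature sequences, so reads may have been split between them.

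The hairpins mir-2212 and mir-1819 lie together on the plus strand of the X chromosome, at 16207829 to 16207888 and 16207955 to 16208035. miR-1819-3p is described above. miR-2212-5p was counted 22, 61 and 54 times in the control and 44, 27 and 21 times in the cadmium libraries, with a log2 fold change of −0.71 (standard error 0.34, adjusted p 0.171). Cadmium replicate 1, at 12.5 CPM, was above control replicate 1, at 11.8 CPM, so its groups overlapped, unlike those of its neighbour.

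mir-1829c and mir-4812 lie within 10 kb of each other on the minus strand of the X chromosome, both in introns of piki-1. miR-4812-5p, under the count minimum, was at 3.74, 3.86 and 3.81 CPM in control and 2.55, 1.48 and 1.79 CPM in cadmium libraries. It was lower in every cadmium library, with a log2 fold change of −0.94 (standard error 0.39, adjusted p 0.104). The members miR-1829c-5p and miR-1829c-3p had log2 fold changes of 0.54 and 0.44, which is the opposite sign. None of these passed the threshold, and the difference between the neighbours was not tested.

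**Figure D4:**
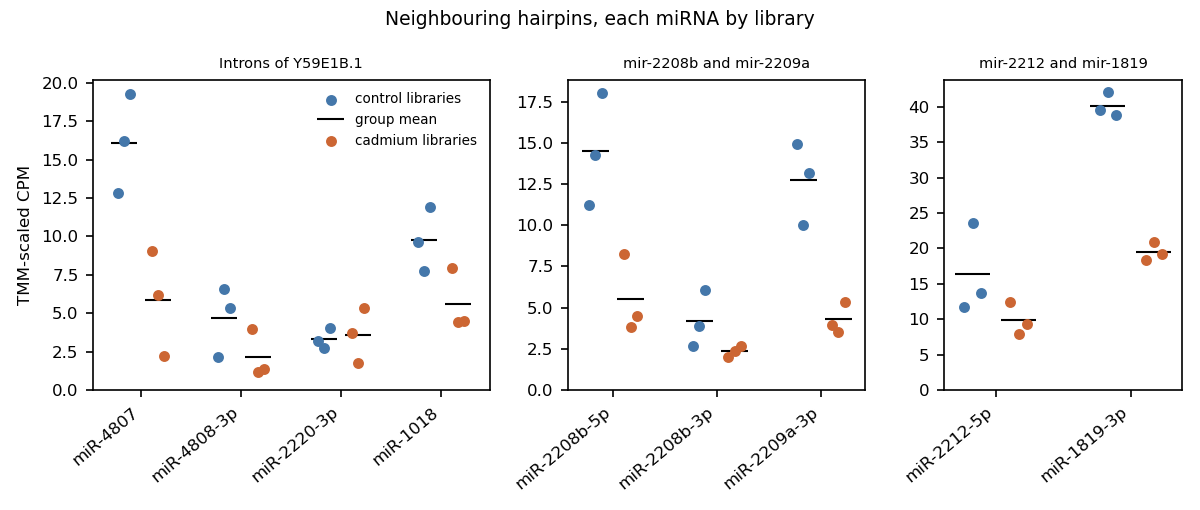
TMM-scaled CPM (linear axes from 0, each panel with its own scale) by library for the members of 3 groups of neighbouring hairpins, with control in blue, cadmium in orange and group means as bars. Cadmium and control libraries are apart for miR-4807, miR-2208b-5p, miR-2209a-3p and miR-1819-3p, and overlap for the other members shown.

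None of the 5 most abundant members passed the threshold; their adjusted p-values ran from 0.26 to 0.965. miR-1820-5p (chromosome IV, 7767461 to 7767567, plus strand) was at 407, 509 and 656 CPM in control and 753, 451 and 348 CPM in cadmium libraries. Cadmium replicate 1 was the highest and cadmium replicate 3 the lowest of the 6, so the spread lay within the cadmium group. The log2 fold change was −0.018 (standard error 0.29, 95% interval −0.66 to 0.63). miR-1022-5p (X chromosome, 6435425 to 6435512, minus strand) was at 442, 395 and 519 CPM in control and 601, 532 and 568 CPM in cadmium libraries. Every cadmium library was above every control library, but the log2 fold change of 0.33 (standard error 0.19, 95% interval −0.10 to 0.75) had an adjusted p of 0.26.

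miR-1822-3p (chromosome II, in an intron of ZK84.2 on the same strand) was at 111 ± 20.2 against 86.6 ± 24.5 CPM, with a log2 fold change of −0.36 (standard error 0.27, adjusted p 0.382). miR-1821-3p (chromosome V, between protein-coding genes) was at 77.9 ± 11.7 against 91.9 ± 12.3 CPM, with a log2 fold change of 0.24 (standard error 0.24, adjusted p 0.51). miR-1829a-5p was at 64.6, 89.6 and 82.7 against 84.8, 77.1 and 59.4 CPM, with an adjusted p of 0.801. In all 3 the groups overlapped.

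The groups were apart for 22 of the 41 tested members (53.7%), beside 38.5% of all 208 tested miRNAs. Of these 22, 13 missed the threshold, 8 of them higher and 5 lower under cadmium. Whether groups were apart was read on TMM-scaled CPM and depends on the scaling. With counts divided by library totals, the groups overlap for miR-1022-5p, miR-4929, miR-1824-5p and miR-5594-3p, which are among the 8. The 5 with the largest fold change among the 13 were miR-4929, miR-1817, miR-1830-3p, miR-1824-5p and miR-2953-3p. miR-1830-3p, from an intron of paic-1 on the same strand, was at 4.81, 5.02 and 4.06 CPM in control and 8.79, 8.57 and 8.04 CPM in cadmium libraries. Its replicates were close in both groups, and its log2 fold change of 0.89 (standard error 0.30) had an adjusted p of 0.0574, or 0.0491 with DESeq2 size factors. miR-1817 (chromosome I, between protein-coding genes) was at 34.2, 37.9 and 26.4 CPM in control and 22.7, 17.1 and 12.5 CPM in cadmium libraries. Its log2 fold change of −0.89 (standard error 0.30) had an adjusted p of 0.0531, which was under the threshold without cadmium replicate 1 (0.0438), under total-count scaling (0.0429) and in DESeq2's Wald test (0.0366).

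miR-2953-3p, from an intron of F41G3.5 on the same strand, was at 23.5, 14.7 and 24.6 CPM in control and 34.0, 38.1 and 33.5 CPM in cadmium libraries. Its log2 fold change was 0.75 (standard error 0.28), with an adjusted p of 0.0746, or 0.0395 in the DESeq2 Wald test. miR-4929 gave 0.93 (standard error 0.39, adjusted p 0.113) on 3, 11 and 14 against 21, 26 and 11 counts. With a control mean of 9.33 counts, under the count minimum, it was a member through its cadmium libraries. miR-1824-5p gave 0.83 (standard error 0.36, adjusted p 0.12) on 14, 21 and 17 against 29, 42 and 32 counts.

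Lettered relatives among the members were read together. The miR-1829 hairpins all lie in introns of X-chromosome genes on the same strand, mir-1829a in gas-1 (a subunit of complex I of the respiratory chain), mir-1829b in F20D1.3 and mir-1829c in piki-1 (a phosphoinositide 3-kinase). Their 5 members gave log2 fold changes of −0.098 for miR-1829a-5p, −0.32 for miR-1829a-3p, 0.54 for miR-1829c-5p, 0.44 for miR-1829c-3p and 0.41 for miR-1829b-3p, and 0 of the 5 passed the threshold or had an unadjusted p under 0.05. The groups were apart for miR-1829c-5p alone, at 16.0, 23.2 and 23.1 CPM in control and 26.1, 29.8 and 35.7 CPM in cadmium libraries (adjusted p 0.187). miR-1829b-3p and miR-1829c-3p had the same count in 5 of 6 libraries and differed by 1 in the other, so these names may stand for 1 set of reads.

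miR-8196a-3p and miR-8196b-3p come from hairpins far apart on the X chromosome, mir-8196a overlapping an exon of the long non-coding gene linc-154 and mir-8196b in an intron of prx-1 on the opposite strand. miR-8196a-3p was at 34.2, 44.4 and 45.7 CPM in control and 23.0, 26.3 and 30.4 CPM in cadmium libraries, and miR-8196b-3p was counted 26, 53 and 55 times in control and 37, 30 and 22 times in cadmium libraries, which in CPM did not overlap. Both were lower in CPM in every cadmium library. The log2 fold changes were −0.65 (standard error 0.26, adjusted p 0.0943) and −0.72 (standard error 0.29, adjusted p 0.099), so neither passed. Their counts differed in every library, with miR-8196a-3p the more abundant.

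In the block from 5000 to 5999, miR-5551-5p was at 32.0, 25.9 and 36.3 CPM in control and 44.2, 52.9 and 45.1 CPM in cadmium libraries (log2 fold change 0.59, standard error 0.25, adjusted p 0.118). miR-5594-3p was at 4.81, 8.11 and 6.60 CPM against 11.1, 10.9 and 8.93 CPM (0.65, standard error 0.31, adjusted p 0.166). In both every cadmium library was above every control library. miR-5592-3p was at 37.4, 67.6 and 48.5 CPM against 35.2, 29.3 and 37.1 CPM (−0.60, standard error 0.28, adjusted p 0.157), lower in every cadmium library but by little in the closest pair. Its hairpin is annotated on both strands of the same stretch of the X chromosome, so which strand the reads came from cannot be told from the names.

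The balance of the hairpin arms was read as a second measure. Both arms are listed for 30 of the 36 hairpins. The 5p arm had more reads in 11 and the 3p arm in 19. The minor arm was at 0 in all 6 libraries for 10 hairpins and under 10% of the reads for 20, with a median of 1.27%. Both arms were members for 7 hairpins, and these entered the arm-ratio test with limma on log2((5p count + 0.5)/(3p count + 0.5)), adjusted over all 63 hairpins with a mean of at least 10 counts in each arm. Of the 7, 0 passed an adjusted p of 0.05, beside 3.17% of all 63, and 1 had an unadjusted p under 0.05, beside 14.3%.

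That one was mir-4813. Its log2 ratio was −3.03, −3.81 and −2.72 in control and −2.03, −1.81 and −2.10 in cadmium libraries. The 3p arm had more reads in every library, and the ratio was closer to 0 in every cadmium library. The change was 1.21 (standard error 0.36, adjusted p 0.111 in limma). While miR-4813-3p fell, miR-4813-5p was at 4.27, 5.41 and 7.36 CPM in control and 4.82, 5.02 and 5.36 CPM in cadmium libraries, with a log2 fold change of −0.21 (95% interval −0.95 to 0.52). For the other 6 hairpins the change of the log2 ratio ran from −0.67 for mir-2208b to 0.17 for mir-1829a, and their groups overlapped.

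**Figure D5:**
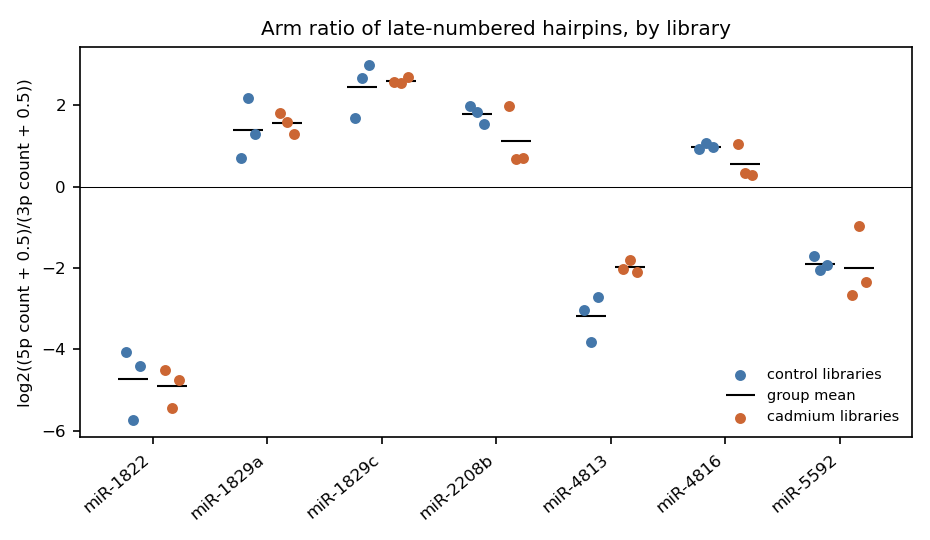
Log2 ratio of 5p to 3p counts, with 0.5 added to each, in every library for the 7 late-numbered hairpins whose arms both had a mean of 10 or more counts, with control in blue, cadmium in orange and group means as bars. The groups are apart for mir-4813 only, where the control mean is −3.19 and the cadmium mean −1.98.

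Of the members not named above, miR-2210-3p was counted 19, 7 and 23 times in the control and 10, 16 and 2 times in the cadmium libraries, and miR-4811-3p had 4, 14 and 23 against 11, 13 and 6. Both had overlapping groups and adjusted p-values of 0.22 and 0.412. The remaining pair, miR-5592-5p and miR-1822-5p, are minor arms with log2 fold changes of −0.55 and −0.57 and adjusted p-values of 0.35 and 0.422. Their groups overlapped too.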

How the data were processed

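The deposited count files hold whole-number counts per mature miRNA, 1 file per library, and the authors' deposited CPM files hold those counts divided by the library total, checked on every file, and were not needed here. Per the submitters' processing notes, FastQC 0.11.9, cutadapt 3.4, Bowtie2 2.4.2, HISAT2 2.2.1, StringTie 2.1.5, DESeq2 and edgeR were used and the build was WBcel235. Their roles, and how a read with several possible miRNAs was counted, are not given in the sources used here. The 2 series-wide tables were left aside, since no title matches any of their 12 columns.

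Groups came from sample titles. In R 4.3.3, edgeR 4.0.16 (filterByExpr, TMM, glmQLFTest, prior count 0.125) was fitted on all 6 libraries, with Benjamini-Hochberg adjustment over the 208 tested miRNAs. Standard errors were derived from the F statistic. Arm ratios used limma 3.58.1, and DESeq2 1.42.0 was an alternative. Methods were tested on simulated data with a common dispersion and no shift of an abundant family. That setting differs from these data, so it gives no support to single calls. Floors cover counting error only. The members and lists were chosen with earlier results of these data known. Members named were those past the threshold, the 5 most abundant, those at the count minimum, the 5 largest changes that missed with groups apart, both-arm hairpins, and relatives and neighbours. The others were added so that each member is accounted for. Mature sequences and seeds were not used here.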

Additional observations from a re-analysis of the deposited data

How the results depend on the processing

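The number of late-numbered members past the threshold was 10 (3 higher, 7 lower). It was 11 with DESeq2 size factors, 11 with total-count scaling, 10 with upper-quartile scaling, 12 with the DESeq2 Wald test, 11 without a filter, where miR-8187-3p was added, and 9 without the miR-35 family. Over all tested miRNAs these settings gave 52, 39, 37, 60, 56 (of 360) and 30 (of 200) in that order, against 45 of 208. Under total-count scaling the median over all 208 moved to −0.16 (log2). With the replicate number as a block 2 passed (1 higher, miR-2221, and 1 lower, miR-2209a-3p), and 12 had an unadjusted p under 0.05. Deviations of same-numbered libraries correlated at −0.044, −0.30 and −0.32, so the numbers were not taken as pairs. Leaving out single libraries gave from 4 to 13 calls, with 1 to 4 higher and 3 to 9 lower. The calls over all tested miRNAs moved as well. They were 17 of 208 with the replicate block, 22 of 206 without control replicate 3 and 52 of 212 without cadmium replicate 1. Requiring a mean of 50 counts left 2 (0 higher, 2 lower), by construction from 15 tested members, and a mean of 5 gave 10. Of the 10, 4 passed with every single library left out. In all 13 settings, 2 of the 10 passed, miR-2221 and miR-2209a-3p. For 33 named members, 428 recomputed fold changes gave 390 unchanged calls, 32 lost calls, 6 gained calls and 0 changes of direction of a call. The unchanged calls include members that passed in neither fit, whatever their sign, and all 32 lost calls belong to the 10. Changed arm ratios among member hairpins stayed at 0 under each alternative. The share of counts held by the members in control libraries was 0.217% of a total without the miR-35 family, against 0.196%, because the total is smaller. Of 45 medians by block of numbers under other scalings or with a library left out, 9 moved by more than the replicate spread, and 7 of them belonged to the first block. Of the 10 calls, miR-4813-3p had a mean of 100 counts or more, and the others rest on fewer. What caused the remaining shifts was not tested.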
